A study of Mus musculus with 4 samples.

Results

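The genes described here encode 10 transcription factors with a basic leucine zipper, the AP-1 proteins and their Bach relatives: Jun, Junb and Jund of the Jun family, Fos, Fosb and Fosl2 of the Fos family, Batf, Atf3, Bach1 and Bach2. They were taken by symbol from a list, and all 10 were found among the 55536 mouse genes of the tables. They were measured in T cells of the spleen of male B6CASTF1/J mice aged 66 days, F1 animals with C57BL/6 as the maternal and CAST/EiJ as the paternal strain. The labels mark the cells by CD3, the receptor-associated complex of T cells, and name no stimulus or other treatment. The single group held 4 biological replicates, numbered libraries 1 to 4, each total RNA sequencing from 300 ng of RNA. The labels give 1 donor identifier to all 4, so the p-values concern the spread between these samples, which may be technical. With 1 group there is no contrast between conditions, and the comparisons are those between the genes, between their transcripts and between the 4 libraries.

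AP-1 is a dimer that binds DNA through the joined zippers of its partners. Jun proteins pair with each other or with Fos proteins, whereas Fos proteins need a Jun partner. In T cells the receptor and its costimulatory signals raise Fos and Jun activity within minutes through mitogen-activated kinases, and AP-1 then acts with NFAT proteins on cytokine genes. Batf pairs with Jun proteins and binds composite sites together with Irf4 or Irf8. Bach1 and Bach2 pair with small Maf proteins and repress, and Bach2 is known for holding back effector genes at AP-1 sites in lymphocytes.

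The libraries held 14584388 to 17335895 estimated counts. All 8 T cell markers exceeded 10 TPM (a length-normalised transcript level) in every library, with a sum between 1572 and 1661 TPM. Marker sums of other spleen cells were lower in each library, but in library 4 the erythroid marker Hba-a1 (246 TPM) exceeded the T cell marker Cd3d (203 TPM). The 7 B cell markers summed to 12.9, 16.1, 10.9 and 128.6 TPM in libraries 1 to 4, and the 5 erythroid markers to 32.5, 60.7, 14.5 and 600.3 TPM, so library 4 was far above the others for both, and none of these 12 markers was listed at 0 in any library. The 5 neutrophil markers reached 25.96 TPM in library 2, against 5.99 to 8.59 elsewhere. In bulk RNA, fewer cells of a type and less RNA per cell cannot be told apart.

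The Jun family made up most of the transcripts of these genes. Together Junb, Jund and Jun stood at 797 ± 66.7 TPM, which was 72.6% ± 4.00 of the summed level of the 10 genes, against 15.6% ± 4.17 for the Fos family, 10.3% ± 1.17 for the Bach pair and 1.45% ± 0.0878 for Batf with Atf3 (SD, n = 4). Over protein-coding transcripts alone the Jun family held 83.7% ± 3.86, the Fos family 11.7% ± 3.77 and the Bach pair 3.26% ± 0.223. Junb, a Jun protein with T cell roles in helper differentiation, had 324.8, 392.5, 444.0 and 368.6 TPM in libraries 1 to 4. It was highest in library 3 and lowest in library 1, and ranked 210 among all genes by mean TPM. Jund, the Jun protein that many resting cells express, had 262.2, 282.6, 279.2 and 260.0 TPM. Jun itself, the founding member and a strong activator, had 138.5, 151.0, 151.6 and 132.0 TPM. For both of these genes the 4 libraries lay close together, with the highest at 1.09 times the lowest for Jund and 1.15 times for Jun.

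Junb lies on chromosome 8 between 84974484 and 84978718 (mm10, minus strand), Jund on chromosome 8 between 70698949 and 70700616 (plus strand), and Jun on chromosome 4 between 95049034 and 95052222 (minus strand). Jun and Jund are annotated with a single exon, and the coding transcript of Junb, which has no intron either, took 99.6% ± 0.175 of its TPM. Annotated genes on the opposite strand overlap all 3, namely Junos over 689 bases of Jun, Prdx2 over 351 bases of Junb and Gm11175 over 919 bases of Jund. These neighbours stood at 3.55, 18.9 and 4.83 TPM on average, far below the Jun genes. Prdx2 does not reach the coding transcript of Junb. It overlaps only the processed transcript Junb-202, which averaged 1.66 TPM, less than Prdx2 itself. The kit marks strand, but whether the counting used it is not given in the sources used here.

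**Figure D1:**
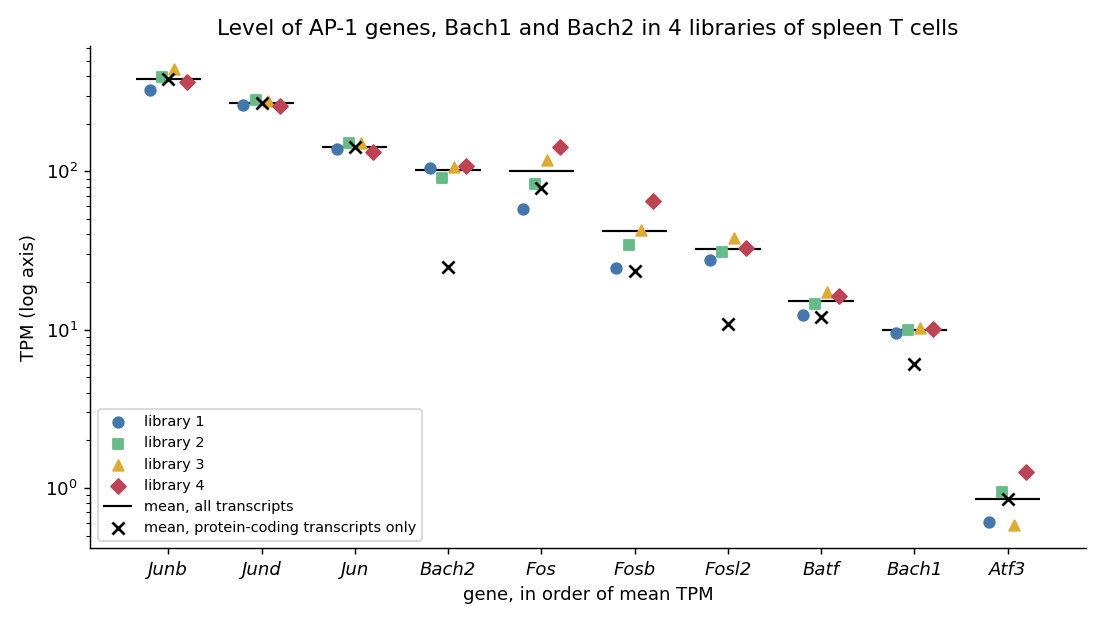
Level of each gene in TPM on a log axis, with 1 symbol for each of the 4 libraries, a bar at their mean over all transcripts and a cross at the mean over protein-coding transcripts. Fos and Fosb spread widest among the abundant genes, and the cross falls well below the bar for Bach2 (24.9 against 103 TPM) and Fosl2 (10.9 against 32.3 TPM).

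The Fos family was lower in every library, and Fos and Fosb in it were far less even than the Jun genes. Fos, whose dimer with Jun binds DNA more stably than Jun alone, had 57.6, 83.1, 117.0 and 141.4 TPM in libraries 1 to 4, or 99.8 ± 36.9 (SD, n = 4). Fosb, its close relative and likewise an immediate early gene, had 24.5, 34.4, 42.9 and 65.0 TPM, or 41.7 ± 17.2. The order of the 4 libraries was the same for both genes, with library 1 lowest and library 4 highest, at a ratio of 2.46 for Fos and 2.65 for Fosb. Fosl2, which encodes the slower Fos protein Fra-2, had 27.7, 31.0, 37.9 and 32.6 TPM and was highest in library 3. Fos lies on chromosome 12 between 85473890 and 85477273 (plus strand), Fosb on chromosome 7 between 19302696 and 19310051 (minus strand) and Fosl2 on chromosome 5 between 32135801 and 32157842 (plus strand).

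The balance between the 2 families differed between libraries. The summed Jun family exceeded the summed Fos family 6.61, 5.56, 4.42 and 3.18 times in libraries 1 to 4. Over protein-coding transcripts alone the ratio was 10.7, 8.87, 6.79 and 4.68. The Jun family was thus ahead in 4 of 4 libraries on either count, by least in library 4 and by most in library 1.

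Signals reach the AP-1 genes in part through short elements before their transcription starts. Only elements near the start are shown here, and those further upstream were not searched. The promoters of Fos and Fosb, which spread most between libraries among the abundant genes, are shown beside those of Junb and Jun, which spread less. Each line gives the 140 bases before the RefSeq start (GRCm38.p6, the assembly of mm10) on the gene's strand. Capitals mark TGACG, the core of the cyclic AMP response element bound by Creb and Atf proteins, TATAAA, the TATA box, and TGACATCA, a variant AP-1 and Atf element.
Fos, chr12:85473750-85473889, plus strand: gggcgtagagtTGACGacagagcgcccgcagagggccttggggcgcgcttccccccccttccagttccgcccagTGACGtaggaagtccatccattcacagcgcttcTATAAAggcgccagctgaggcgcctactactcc
Fosb, chr7:19310046-19310185, minus strand: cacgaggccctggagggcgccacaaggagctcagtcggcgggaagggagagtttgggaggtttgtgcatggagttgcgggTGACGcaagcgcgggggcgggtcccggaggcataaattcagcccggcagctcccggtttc
Junb, chr8:84978749-84978888, minus strand: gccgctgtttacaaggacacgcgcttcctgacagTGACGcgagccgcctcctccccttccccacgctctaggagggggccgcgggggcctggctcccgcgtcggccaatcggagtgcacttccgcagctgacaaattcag
Jun, chr4:95052223-95052362, minus strand: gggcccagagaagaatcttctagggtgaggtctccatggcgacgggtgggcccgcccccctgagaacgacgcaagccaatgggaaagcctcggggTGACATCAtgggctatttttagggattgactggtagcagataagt
Fos holds TGACG 129 and 66 bases before its start and TATAAA 33 bases before it. Fosb holds TGACG 60 bases before its start, Junb 106 bases before it, and Jun holds TGACATCA 45 bases before its start.

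The motifs were searched on both strands in windows of 300 bases, from 250 before to 50 after the RefSeq start, which were found for all 10 genes. TGACG was present in 5 of the 10, namely Junb, Fos, Fosb, Batf and Atf3, against 20.8% of 32851 mouse promoter windows. The full palindrome TGACGTCA, which contains TGACG, was in 0 of the 10 and in 1.79% of all windows. TGANTCA, with any base at N, was in 0 of the 10 and 7.81% of all. That pattern is wider than the AP-1 site, which has C or G at N. TATAAA was in 2 of the 10, Fos and Junb, and in 13.6% of all. The match in Junb begins at its RefSeq start, so it is not printed, and 30 bases before its GENCODE start. TGACATCA, searched after the Jun window had been seen, was in 1 of the 10 and 3.62% of all. A match describes letters and not a bound site, and Junb, whose highest library was 1.37 times its lowest, holds TGACG as Fos and Fosb do. The RefSeq start lies far from the outermost GENCODE start for Jund, Fosl2, Atf3 and Bach2, at 1210, 671, 34706 and 178631 bases. Those windows need not be the promoters in use. For Atf3 the RefSeq start, 191183333, lies near the GENCODE start of Atf3-201, 191183340, and the large distance is to that of Atf3-203. For Bach2 it is the start of Bach2-207, at 0 TPM in each library of the first quantification and 0.755 TPM on average in the second.

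Among the remaining genes Bach2 was abundant and the others low. Bach2, the repressor that limits effector differentiation, had 105.3, 91.1, 106.5 and 107.3 TPM, with library 2 below the other 3. Bach1, the heme-sensitive repressor of heme oxygenase, had 9.55, 9.93, 10.2 and 10.04 TPM, the smallest relative spread of the 10 genes, with a coefficient of variation of 2.92%. Batf, a factor without an activation domain of its own, had 12.5, 14.5, 17.4 and 16.4 TPM and was lowest in library 1. Atf3, a stress-induced factor that often represses, had only 0.61, 0.94, 0.58 and 1.27 TPM. Those values rest on 19, 30, 18 and 35 counts, and its rank among all genes was 13164. Bach2 lies on chromosome 4 between 32238804 and 32586108 (plus strand), Bach1 on chromosome 16 between 87698945 and 87733346 (plus strand), Batf on chromosome 12 between 85686669 and 85709087 (plus strand) and Atf3 on chromosome 1 between 191170296 and 191218039 (minus strand).

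In order of mean TPM the genes were Junb, Jund, Jun, Bach2, Fos, Fosb, Fosl2, Batf, Bach1 and Atf3. Each of the 9 neighbouring pairs was compared within libraries as a log2 ratio of TPM plus 0.1. For 7 of the 9 pairs the gene ranked higher was ahead in 4 of 4 libraries. Junb exceeded Jund by 0.49 ± 0.15 on the log2 scale, Jund exceeded Jun by 0.92 ± 0.04, Jun exceeded Bach2 by 0.48 ± 0.18 and Fos exceeded Fosb by 1.27 ± 0.14 (SD, n = 4). Lower in the order, Fosl2 exceeded Batf by 1.09 ± 0.07, Batf exceeded Bach1 by 0.60 ± 0.17 and Bach1 exceeded Atf3 by 3.46 ± 0.47. Each of these pairs reached the smallest p possible with 4 libraries in the exact permutation test of signs, two-sided, which is 0.161 after Benjamini-Hochberg adjustment over the 9 pairs, so no pair could pass 0.05.

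The order of the other 2 pairs was not the same in every library. Bach2 over Fos was 0.87, 0.13, -0.14 and -0.40 (log2) in libraries 1 to 4, a mean of 0.12 ± 0.55 with Bach2 ahead in 2 of 4 libraries (exact permutation p = 0.875, also 0.875 adjusted). The mean turned to -0.13 without library 1 and to -0.19 in the second quantification. Fosb over Fosl2 was -0.18, 0.15, 0.18 and 0.99, a mean of 0.29 ± 0.50 with Fosb ahead in 3 of 4 libraries (exact permutation p = 0.375, adjusted 0.422). That mean was 0.05 without library 4 and 0.44 without library 1, and over coding transcripts it was 1.03 ± 0.63 with Fosb ahead in 4 of 4 libraries.

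Which transcripts carry these levels differed sharply between the genes. In Bach2 the annotated protein-coding transcripts held 24.3% ± 2.09 of the TPM, or 24.9 ± 2.53 TPM, but 88.8% ± 0.824 of the estimated counts (SD, n = 4). Bach2-206, an annotated processed transcript of 331 nucleotides without a coding sequence, had 40.1, 33.1, 36.6 and 31.4 TPM in libraries 1 to 4, which was 34.5% ± 3.82 of the gene's TPM and 4.12% ± 0.684 of its counts. Bach2-205, a processed transcript of 336 nucleotides, took 27.5% ± 1.30 of TPM and 3.34% ± 0.313 of counts. The long coding transcript Bach2-202, of 8882 nucleotides, had 16.4, 15.8, 17.4 and 19.3 TPM and took 16.8% ± 1.06 of TPM and 75.8% ± 0.817 of counts. TPM divides an estimate by the transcript's length, so short transcripts weigh more on that scale than in the counts. The second quantification put Bach2-206 at 39.2% ± 5.89 but Bach2-205 at 8.13% ± 6.91, so the share of Bach2-205 was not settled between the methods. Bach2-204 and Bach2-201, a processed and a coding transcript, took 11.3% ± 1.82 and 7.52% ± 1.13 of TPM.

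The short Bach2-206 and the long Bach2-202 begin at different first exons and join the same second exon, and the bases at these joints are shown because only reads across the left-hand part can tell them apart there. Each line holds 15 bases of the first exon in lower case and 15 of the second exon in capitals, from GENCODE M21 transcripts.
Bach2-206: ttctgcctgtcacagCTGTCTGCTTCGAGA
Bach2-202: aaagttcccgggaagCTGTCTGCTTCGAGA
The introns so removed are 69135 bases long in Bach2-206 and 78108 bases in Bach2-202. Coding transcripts alone placed Bach2 below Fos, with a log2 ratio of -1.56 ± 0.48 and Fos ahead in 4 of 4 libraries, the smallest p the exact permutation test can give here. On the same coding transcripts Jun exceeded Bach2 by 2.52 ± 0.20, where all transcripts gave 0.48. The sense intronic gene Bach2it1 (4.23 TPM) and the small RNA gene Gm24371 (19.5 TPM) lie inside Bach2 on the same strand, which leaves the origin of reads there uncertain, and the second quantification put them at 15.3 and 3.26 TPM.

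**Figure D2:**
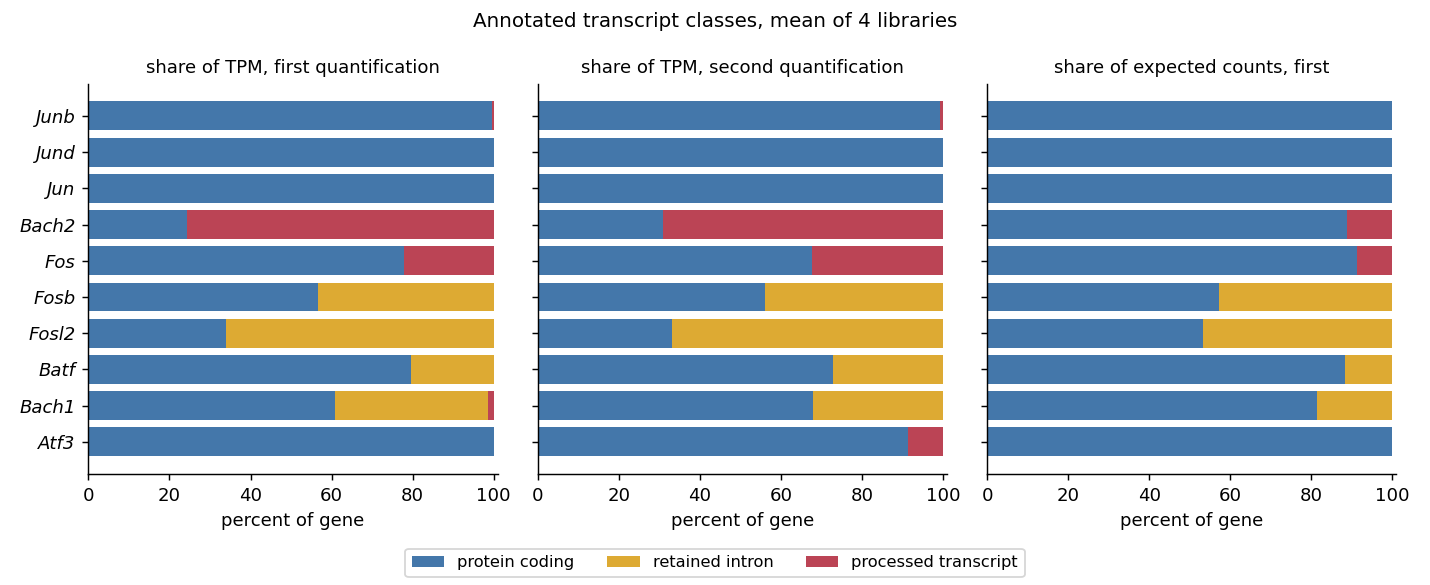
Share of each gene held by protein-coding, retained-intron and processed transcripts, in percent, as the mean of 4 libraries, for TPM of the first and second quantification and for estimated counts of the first. Bach2 is 24.3% coding by TPM and 88.8% by counts, and Fosb, Fosl2, Batf and Bach1 hold retained-intron shares in all 3 panels, smaller by counts for Fosl2, Batf and Bach1.

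Transcripts annotated with a retained intron made a large part of several genes in this total RNA. In Fosl2 the single-exon Fosl2-202 had 11.96, 13.9, 17.8 and 18.1 TPM, or 47.6% ± 5.51 of the gene, and Fosl2-203 took another 18.5% ± 3.14. The coding transcript Fosl2-201 had 9.68, 12.2, 12.4 and 9.37 TPM, or 33.9% ± 4.35 by TPM and 53.3% ± 5.19 by counts. Counting coding transcripts alone brought Fosl2 to the level of Batf, at a log2 ratio of -0.14 ± 0.16 with Fosl2 ahead in 1 of 4 libraries (exact permutation p = 0.25). In Bach1 the retained-intron transcript Bach1-203 took 37.6% ± 3.81 and the coding Bach1-201 61.0% ± 3.93, but by counts they took 18.4% ± 2.40 and 81.4% ± 2.41. In Batf the retained-intron Batf-202 took 20.5% ± 5.22 of TPM and 11.6% ± 3.34 of counts, and the coding Batf-201 79.5% ± 5.22 of TPM.

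In Fosb the retained-intron transcript Fosb-204 had 10.5, 15.2, 17.8 and 29.0 TPM in libraries 1 to 4, and the coding transcripts together had 14.0, 19.2, 25.0 and 36.0 TPM. Both were lowest in library 1 and highest in library 4, and the share of Fosb-204 stayed at 42.9%, 44.3%, 41.6% and 44.7%. The spread of Fosb between libraries was therefore present in transcripts with and without the intron. Among coding transcripts, Fosb-201 took 28.3% ± 8.15 and Fosb-205 24.4% ± 8.52 in the first quantification, but 49.7% ± 3.68 and 2.78% ± 3.60 in the second, so the split between these near-identical transcripts was not settled. In Fos the coding Fos-201 had 44.0, 61.7, 91.0 and 117.0 TPM, or 77.8% ± 3.61, again with library 1 lowest and library 4 highest. The processed transcript Fos-203 took 13.9% ± 3.30. In Atf3 the coding transcripts Atf3-201 and Atf3-203 took 69.8% ± 47.5 and 30.2% ± 47.5, a split that so few counts cannot fix.

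Fosb can lose a segment of 140 bases in its last exon, and the resulting short protein, known as delta FosB, lacks the C-terminal activation region. The joint is shown because the loss creates a stop codon at the first bases after it, which are the first 3 capitals of Fosb-206. Fosb-201 keeps the segment and reads on, and in its line the capitals are the first 15 bases of the segment (GENCODE M21 transcripts, 15 bases on each side).
Fosb-206: ggcccgctggccgagTGAAGTTCAAGTCCT
Fosb-201: ggcccgctggccgagGTGAGAGATTTGCCA
The coding sequence has 338 codons in Fosb-201 and 237 in Fosb-206. The 2 transcripts without the segment, Fosb-206 and Fosb-207, together took 5.40%, 0%, 3.24% and 2.55% of the gene in libraries 1 to 4, or 2.80% ± 2.23, and 3.34% ± 2.44 in the second quantification. In the first quantification this share was all Fosb-207, which has 201 codons and also lacks an inner exon. Fosb-206 was at 0 there in each library. The second quantification gave it all to Fosb-206 and 0 to Fosb-207, so the split between these transcripts was not settled. A share of 0 in library 2 is an estimate of the quantifier and does not show absence. The form that keeps the segment therefore made up most of the coding Fosb RNA by both quantifications.

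**Figure D3:**
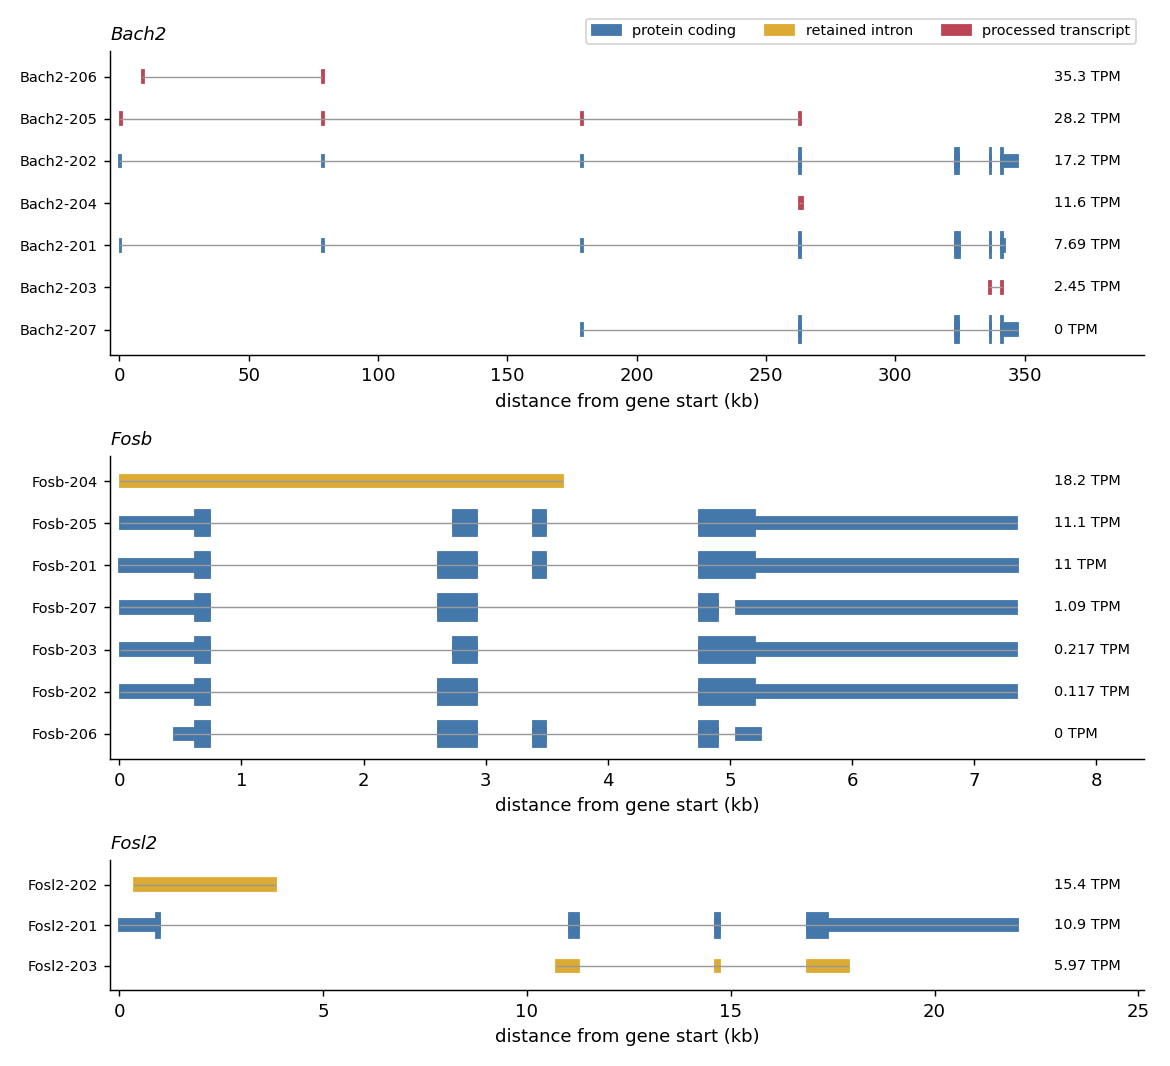
Annotated transcripts of Bach2, Fosb and Fosl2 drawn to scale by distance from the gene's start in kb, with exons as boxes, coding parts as taller boxes, introns as lines and the mean TPM of 4 libraries at the right. The highest transcript of Bach2 (35.3 TPM) is short and non-coding, and those of Fosb (18.2 TPM) and Fosl2 (15.4 TPM) are single boxes that run through introns of the coding form.

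Variation between libraries was tested for every gene with edgeR's goodness-of-fit test, which asks whether a gene's counts spread over the 4 libraries beyond the trend for its abundance. Of 13118 tested genes, 183 passed at a Benjamini-Hochberg adjusted p below 0.05, or 1.4%. All 10 AP-1 and Bach genes were tested and 2 passed, Fos and Fosb. Fos deviated from its own mean by -0.67, -0.21, 0.29 and 0.58 on the log2 CPM scale (CPM, counts scaled to library size) in libraries 1 to 4, with a statistic of 102 and an adjusted p of 2.31e-19 in edgeR's goodness-of-fit test. Fosb deviated by -0.62, -0.17, 0.12 and 0.67 there, with a statistic of 100 and an adjusted p of 5.42e-19 in the same test. They ranked 31 and 32 of all tested genes. Their coefficient of variation between libraries beyond counting error was estimated at 0.216 for each gene, where the trend for their abundance lay near 0.061.

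Library 4, where both genes were highest, also held the most B cell and erythroid marker RNA. Without library 4 both genes still passed, with adjusted p = 1.95e-11 for Fos and 2.71e-06 for Fosb in edgeR's goodness-of-fit test. Among the remaining 3 libraries, where the B cell markers summed to between 10.9 and 16.1 TPM, Fos deviated by -0.48, -0.01 and 0.48 and Fosb by -0.40, 0.06 and 0.34. Leaving out library 1, the lowest, gave adjusted p = 1.99e-05 for Fos and 1.47e-06 for Fosb in the same test. Over libraries 1 to 3 the erythroid markers summed to 32.5, 60.7 and 14.5 TPM and the neutrophil markers to 5.99, 25.96 and 8.59 TPM, both highest in library 2, whereas Fos and Fosb were highest in library 3. The 3 natural killer markers summed to 10.4, 10.5, 12.4 and 14.3 TPM in libraries 1 to 4, in the same order as Fos and Fosb. Singly, Eomes followed that order (6.57, 6.96, 8.57 and 9.53 TPM), but Klrb1c was lowest in library 2 (2.92 TPM) and Ncr1 in library 3 (0.26 TPM). Eomes and Klrb1c did not pass edgeR's goodness-of-fit test, and Ncr1 was not tested. The part of RNA from other cells in these differences was not tested.

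The other 8 genes did not pass. Junb had an unadjusted p of 0.0124 and an adjusted p of 0.465, with deviations of -0.18, 0.07, 0.21 and -0.10. Fosl2 had an unadjusted p of 0.0328 and an adjusted p of 0.886 in edgeR's goodness-of-fit test, with deviations of -0.17, 0.04, 0.20 and -0.07. Both were highest in library 3, which sets them apart from the order seen for Fos and Fosb. Jun, Jund, Batf, Atf3, Bach1 and Bach2 had an adjusted p of 1.00 each in that test. Between their highest and lowest library these 6 genes spanned 0.16 for Bach1 up to 1.02 for Atf3 on the log2 CPM scale, and for Atf3 a span of that size did not pass at so low a count. Library 1 held the lowest log2 CPM for 5 of the 10 genes, against 23.1% of all tested genes, and library 4 held the highest for 4 of the 10, against 28.5%. Over the 10 genes the median deviation was -0.17, 0.05, 0.10 and -0.03 in libraries 1 to 4. Over all tested genes it was at most 0.0033 in each, but the scaling itself holds that median near 0. It is therefore no measure of how far 10 genes stray. The span between highest and lowest library had a median of 0.27 over all tested genes.

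**Figure D4:**
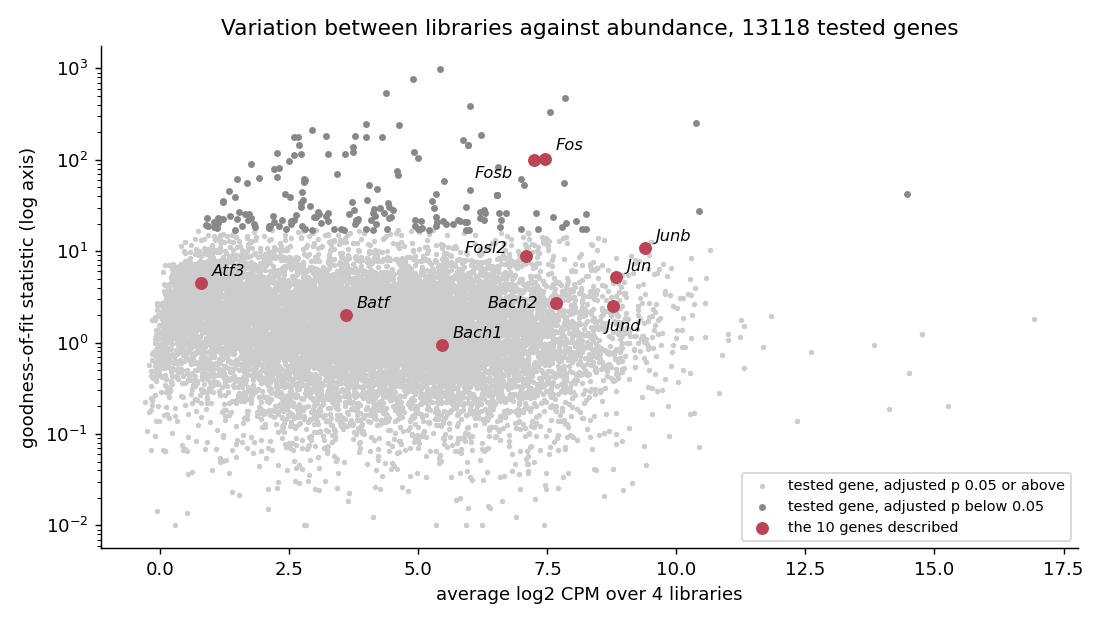
Goodness-of-fit statistic on a log axis against average log2 CPM for 13118 tested genes, with genes at an adjusted p below 0.05 in dark grey, the 10 AP-1 and Bach genes in red and statistics under 0.01 drawn at that value. Fos (102) and Fosb (100) stand far above Junb (10.9), the next of the 10, and the other 8 lie within the cloud of genes that did not pass.

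The genes whose pattern over the 4 libraries was most like that of Fos and Fosb were sought among the 183 that passed, by the root mean square distance between centred log2 CPM profiles. For Fos these included Klf4 at a distance of 0.075, Aim2 at 0.094, Fosb at 0.099 and Gm37621 at 0.156. For Fosb they were Klf4 at 0.089, Fos at 0.099, Aim2 at 0.135, Gm37621 at 0.167 and Galnt2 at 0.190. Klf4, a zinc finger transcription factor, deviated by -0.56, -0.29, 0.23 and 0.62, and Aim2, a sensor of cytosolic DNA, by -0.54, -0.34, 0.29 and 0.59. Like Fos and Fosb, both had library 1 lowest and library 4 highest. With 4 libraries such likeness is a description only, and among all 183 genes that passed, 55.2% had their highest log2 CPM in library 4 and 26.8% their lowest in library 1.

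Other immediate early genes, which signals switch on without new protein synthesis, were present throughout. All 12 on the list (Egr1, Egr2, Egr3, Nr4a1, Nr4a2, Nr4a3, Ier2, Ier3, Dusp1, Zfp36, Btg2 and Klf6) exceeded 1 TPM and 8 exceeded 10 TPM on average. None of the 12 passed edgeR's goodness-of-fit test at the adjusted threshold, against 1.4% of all tested genes, while 3 had an unadjusted p below 0.05, against 4.6% of all. Whether they varied less than Fos and Fosb was not tested. Klf6, a zinc finger factor, led with 212 ± 12.2 TPM, Dusp1, a phosphatase that shuts off mitogen-activated kinases, had 129 ± 4.38 TPM, and Zfp36, which speeds the decay of AU-rich mRNAs, had 67.5 ± 11.2 TPM (SD, n = 4). Zfp36 had 58.4, 59.6, 69.6 and 82.5 TPM in libraries 1 to 4 and an adjusted p of 0.297 in that test. Egr1, a zinc finger factor induced together with Fos in many cells, had 15.2, 18.0, 20.9 and 22.0 TPM and an adjusted p of 0.639. In TPM both followed the same order of libraries as Fos, but on the log2 CPM scale of the test Zfp36 was lowest in library 2. On that scale Klf6 and Dusp1 were lowest in library 4, where Fos was highest, with deviations of -0.20 and -0.10 there. The median deviation of the list was -0.13, 0.00, 0.07 and 0.02. Of the 12, 6 were lowest in library 1, against 23.1% of all tested genes, and 4 were highest in library 4, against 28.5%.

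**Figure D5:**
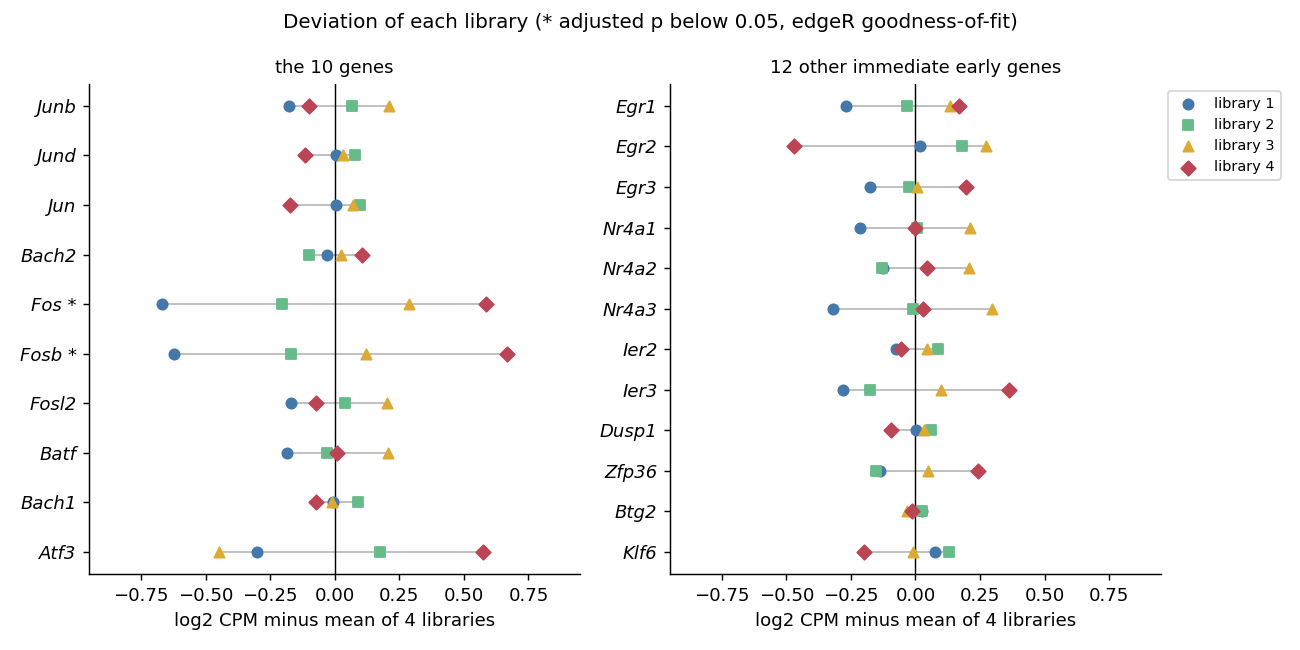
Deviation of each library from the gene's mean in log2 CPM, for the 10 AP-1 and Bach genes on the left and 12 other immediate early genes on the right, with 1 symbol per library and an asterisk for an adjusted p below 0.05 in edgeR's goodness-of-fit test. Fos runs from -0.67 to 0.58 and Fosb from -0.62 to 0.67, wider than any of the 12 other immediate early genes.

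Other basic leucine zipper genes that can pair with these factors were less abundant than the Jun family. Of 16 listed, 9 reached 1 TPM, 10 were tested and 2 passed edgeR's goodness-of-fit test, against 1.4% of all tested genes. Atf4, the factor of the integrated stress response, had 69.6, 92.4, 104.7 and 102.3 TPM (adjusted p = 0.0440 in that test) and was lowest in library 1. Maff, a small Maf protein and thus a partner of Bach proteins, had 28.4, 36.3, 38.4 and 23.7 TPM (adjusted p = 0.00356 in the same test) and was lowest in library 4. Mafk, another small Maf, was the more abundant at 65.2 ± 3.09 TPM and did not pass. Atf7 had 39.3 ± 2.34 TPM.

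The kinases and factors upstream of AP-1 were present and even between libraries. Of 16 listed, 15 reached 1 TPM, 15 were tested and 0 passed edgeR's goodness-of-fit test, with 1 of them at an unadjusted p below 0.05, against 1.4% and 4.6% of all tested genes. Elk4, a ternary complex factor that acts with Srf on the Fos promoter, had 103.7, 103.1, 102.8 and 104.2 TPM. Map2k2, a kinase of the mitogen-activated cascade, had 44.4 ± 4.60 TPM. Of the 5 cooperating factors, Nfatc3 had 72.0 ± 4.14, Nfatc1 43.9 ± 1.88 and Nfatc2 32.2 ± 2.58 TPM (SD, n = 4), and none of these 3 passed. Irf8, a Batf partner that B cells also express, passed with 4.64, 4.87, 4.26 and 9.07 TPM (adjusted p = 0.00749 in edgeR's goodness-of-fit test). It was high in library 4, the library with the most B cell marker RNA.

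Genes that the Bach proteins are known to repress ranged widely in level. Of 9 listed for Bach1, 6 reached 1 TPM, 6 were tested and 0 passed edgeR's goodness-of-fit test, also 0 at an unadjusted p below 0.05. At the shares of 1.4% and 4.6% over all genes, a count of 0 among so few genes says nothing particular to them. Fth1 and Ftl1, the ferritin chains, had 262 ± 9.04 and 140 ± 5.79 TPM, and Txnrd1, a thioredoxin reductase, had 14.4 ± 0.727 TPM. Me1 was listed at 0 in every library. Of 8 listed for Bach2, 2 reached 1 TPM, 4 were tested and 0 passed edgeR's test, again 0 at an unadjusted p below 0.05, with the same limit. Gata3, which is also a factor of T cell development, had 22.7 ± 2.38 TPM, Prdm1, the effector factor Blimp-1, had 2.06 ± 0.401 TPM, and Ccr4, a chemokine receptor, had 0.953 ± 0.291 TPM.

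Cytokine and effector genes that AP-1 is known to activate were low. Of 7 listed, 4 reached 1 TPM and 0 reached 10 TPM, and of 4 tested 0 passed edgeR's goodness-of-fit test, adjusted or at an unadjusted p below 0.05, where 1.4% and 4.6% of all genes did. Tnf had 3.76, 4.96, 5.96 and 7.14 TPM in libraries 1 to 4, in the same order as Fos, with an unadjusted p of 0.118 and an adjusted p of 1.00 in that test. Ifng had 2.98, 5.37, 5.76 and 5.05 TPM and Mmp9, a matrix protease also made by neutrophils, had 2.92, 2.67, 1.42 and 1.00 TPM. Il2, the growth factor of stimulated T cells, averaged 0.145 ± 0.123 TPM (SD, n = 4), and Il3 was listed at 0 in every library.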

How the data were processed

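The 4 libraries of CD3 T cell total RNA were made with a directional kit and spike-ins, per the labels. The deposited notes name mm10 and GENCODE M21 and show that each library was quantified alone. Aligner and quantifier names were not given in the sources used here. Deposited expected counts are unnormalized estimates per gene or transcript. The deposited TPM values divide by effective length and sum to a fixed total over all targets, short structural RNAs included, and protein-coding genes held 34.4% to 35.9% of TPM. The deposited percent values give a transcript's share of its gene's TPM. The first quantification has a gene and a transcript table, and the second, made from the reads, a transcript table that was summed per gene here. The reference genome is C57BL/6, so reads from the CAST/EiJ chromosomes could be lost.

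Expected counts were rounded to whole numbers and tested with edgeR 4.0.16 in R 4.3.3 (TMM scaling, filterByExpr, intercept only, trended dispersion, goodness-of-fit, Benjamini-Hochberg at 0.05), which was also tested on simulated data. The 26248 numeric identifiers, at most 8.75e-05% of counts, and 97 spike-ins, 0.299% to 0.347%, stayed out of library sizes. TPM log2 ratios used a pseudocount of 0.1. Library pairs differed by 4.42 to 10.1 chi-square units per degree of freedom, so none was merged. Promoters came from RefSeq and junctions from GENCODE transcripts. Also used were DESeq2 1.42.0 for its size factors, limma 3.58.1, and pandas 2.3.3 with scipy 1.17.1 in Python 3.11.15.

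The members, gene lists, markers and tests were chosen with earlier results of these data known. Named were all members, their transcripts with a share of at least 5% and the 2 short Fosb forms, the 5 genes that passed with a profile nearest to each member that passed, and of each pathway list those that passed and the 3 highest by TPM. Some genes that these rules would name are not reported here. Egr1, Il2, Il3, Me1 and the natural killer markers were named after their values were seen. Alternatives were other scalings, filters, the second quantification, rescaling to protein-coding genes, another pseudocount and leaving out each library. Coding transcripts alone and shares of counts were added after seeing the data.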

Additional observations from a re-analysis of the deposited data

Results flagged for a closer look

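Of 71 values checked over the 4 libraries, 10 had 1 library set apart from the others by more than Dixon's 95% limit for 4 values, and chance sets about 1 in 20 apart in this way. Some of the values overlap, since the sum of the Bach genes and the Bach2 gene share the same reads. Bach2 was lowest in library 2, at 91.12 TPM against 105.3 to 107.3 in the others, and its short transcript Bach2-205 was lowest there too, at 23.27 TPM against 29.5 to 30.1. The Bach family sum was 101.05 TPM in that library, against 114.8 to 117.4. The coding transcripts of Bach2 together had 23.2 TPM in library 2, near the low end, against 22.5, 25.9 and 28.0 in libraries 1, 3 and 4. Of these, Bach2-202 was lowest in library 2, at 15.8 TPM against 16.4 to 19.3. In log2 CPM the whole gene was lowest in library 2 too, with a deviation of -0.10. Atf3-203 was at 0.94 TPM in library 2 on 30 counts, against 0 to 0.12 elsewhere.

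Among the pathway genes Irf8 reached 9.07 TPM in library 4, against 4.26 to 4.87, and Nfatc3 reached 78.14 TPM there, against 69.1 to 70.5. Of the marker sums, B cell markers had 128.58 TPM in library 4 against 10.9 to 16.1, and erythroid markers 600.26 TPM in library 4 against 14.5 to 60.7. Neutrophil markers had 25.96 TPM in library 2 against 5.99 to 8.59. Stroma and endothelium markers had 0.77 TPM in library 3 against 0.34 to 0.40. Fos and Fosb were not among these, as their 4 values left no gap of that size.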

How the results depend on the processing

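Fos and Fosb passed, and the other 8 members did not, under each of the 10 alternatives to the test of variation. The number of genes that passed was 180 with DESeq2 size factors, 184 with total counts, 123 with spike-in totals and 192 in the second quantification, against 183. It was 279 of 23727 genes with no filter on low counts and 331 of 15272 with 10 counts in at least 1 library. Leaving out 1 library gave 116 to 146 genes, with 116 without library 4 and 118 without library 1. Scaling to spike-ins moved the median of all genes by 0.15 in library 4, where Fos then stood at 0.74 and Fosb at 0.82 on the log2 scale. The log2 ratio of Bach2 to Fos turned to -0.19 in the second quantification, to -1.56 over coding transcripts and to -0.13 without replicate 1 (range -0.13 to 0.29 over the 4 libraries left out in turn), and that of Fosl2 to Batf turned to -0.14 over coding transcripts. Why Bach2 to Fos turned in the second quantification was not tested. All other mean ratios kept their direction in each alternative run, and that of Fosb to Fosl2 ranged from 0.05 without replicate 4 to 1.03 over coding transcripts. Levels were 0.974 to 1.40 times the first in the second quantification and 2.82 to 2.83 times with TPM rescaled to protein-coding genes. Of 22 transcript shares, 13 moved by more than their SD in the second quantification, and 15 when taken from counts. Depth limits Atf3, with 18 to 35 counts a library. No paired analysis was possible because there is 1 group, so no groups share replicate numbers, and the log2 ratios compare genes within libraries.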
